A study of Drosophila mojavensis with 127 samples.

Results

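Males of a San Quintin stock of Drosophila mojavensis were compared between the 2 cacti on which they had been reared. Males reared on organ pipe cactus (Stenocereus thurberi) were set against males reared on pitaya agria (Stenocereus gummosus), with mated and nonmated males weighted equally and also described apart. They were chosen by the population, sex and diet in the labels, and they account for 16 of the 127 arrays of the series, or 14 of its 123 replicates once arrays of a group with the same replicate number were averaged. The groups held 3 replicates of mated males on organ pipe, 3 of mated males on agria, 4 of nonmated males on organ pipe and 4 of nonmated males on agria. All flies were labelled wild-type; the labels do not give the tissue, the age of the flies or whether replicates came from separate cultures, so each p-value rests on the spread of the samples at hand, and that spread may be technical alone. The full series crossed 4 populations with both cacti, both sexes and both mating states, on single-colour NimbleGen arrays.

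Drosophila mojavensis is a cactophilic fly of the Sonoran Desert region that breeds in necrotic, fermenting cactus tissue. Flies of the Baja California peninsula, where San Quintin lies, mostly use agria as a host, while flies of mainland Sonora and Arizona mostly use organ pipe. The cacti differ in the chemistry of their tissue and in the microbes that ferment it, and the host on which a fly develops is known to alter its development time, its cuticular hydrocarbons and its mating behaviour. The table gives 14528 transcript identifiers, and 0 of them matched the RefSeq gene table of the species, so transcripts are named by identifier and no gene or function is given to them.

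The values are RMA expression values on the log2 scale, so that a difference of 1 is a 2-fold change. Array medians over the series ran from 10.15 to 10.64. Nonmated agria replicate 1 stood apart from the other San Quintin males. Its correlations with the other 13 replicates across transcripts lay between 0.838 and 0.906, whereas pairs among those 13 lay between 0.950 and 0.995. In this replicate 3019 transcripts differed by at least 2-fold from the mean of the other 3 replicates of its group, 1245 of them higher and 1774 lower; the same count was 10 to 719 in the other replicates. Its deviations had a median of 0.39 (log2) among the 3632 transcripts with the lowest mean level and of -0.27 among the 3632 with the highest. Its array median was 10.42, and the cause was not tested. Results that rest on it are given with and without it.

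**Figure D1:**
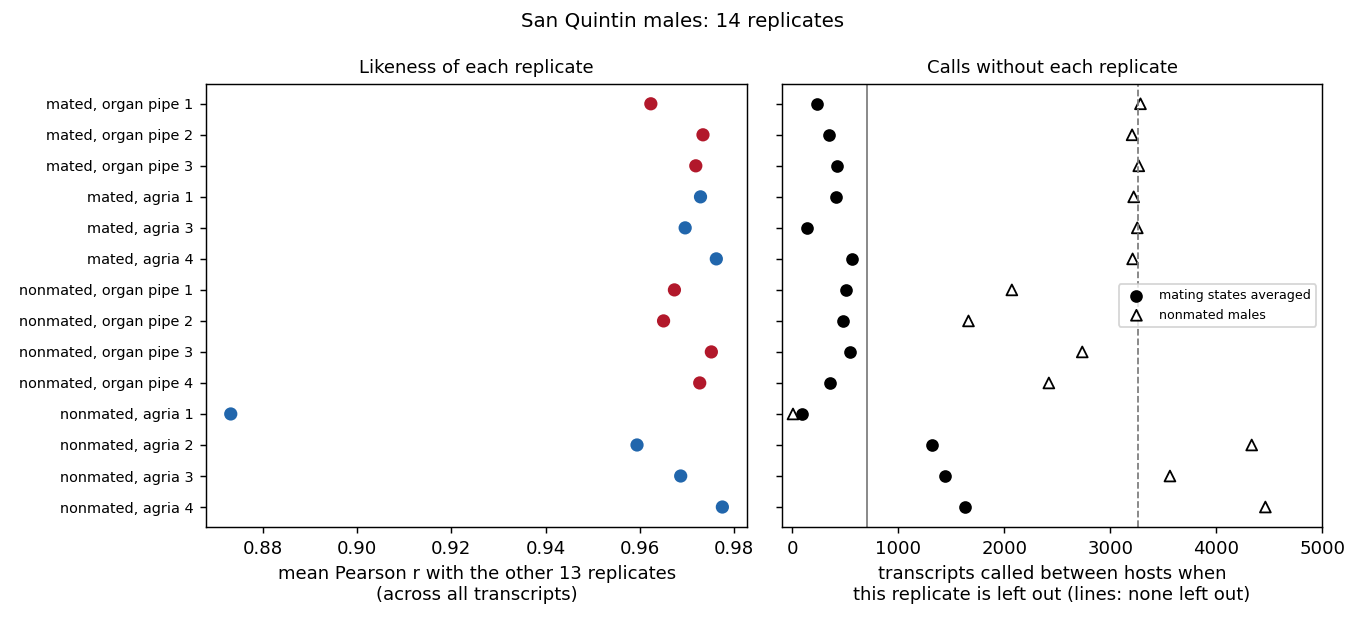
Left, mean Pearson r of each of the 14 replicates of San Quintin males with the other 13, across 14528 transcripts; organ pipe in red, agria in blue. Right, number of transcripts called between hosts when that replicate is left out, for the average of both mating states (filled circles) and for nonmated males (open triangles), with lines at 706 and 3259 for all replicates. Nonmated agria replicate 1 lies far to the left in both panels, with 88 and 7 calls without it.

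A second limit concerns Punta Onah males, a mainland population used below for comparison. Their nonmated organ pipe group correlated at 0.950 to 0.975 with the other 3 male groups of its own population and at 0.964 to 0.986 with the 12 male groups of the other populations, across transcripts of group means. The other Punta Onah male groups correlated with those 12 groups at 0.932 to 0.974. The host difference of Punta Onah males is therefore also given by mating state.

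Over both mating states, most of the transcripts called between hosts whether or not nonmated agria replicate 1 was included were lower in San Quintin males reared on organ pipe. In limma with Benjamini-Hochberg adjustment over all transcripts, 706 of 14528 transcripts (4.86%) were called at an adjusted p below 0.05, of which 349 (2.4%) had more and 357 (2.46%) had less signal on organ pipe. Without nonmated agria replicate 1, 88 transcripts (0.606%) were called, 17 higher and 71 lower. Of these, 86 belonged to the 706 as well, 16 higher and 70 lower, which is 12.2% of the larger list and 97.7% of the smaller. The split between directions in the larger list also moved with the scaling of the arrays, to 263 higher and 502 lower when every array was shifted to the same median and to 490 higher and 388 lower with quantile normalization. With the dimmest transcripts removed it was 438 higher and 398 lower.

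Most calls were sensitive to single replicates. Leaving out mated organ pipe replicates 1, 2 and 3 in turn gave 235, 349 and 424 calls, and leaving out mated agria replicates 1 and 3 gave 413 and 140. Without nonmated organ pipe replicate 4 the count was 356. Without nonmated agria replicates 2, 3 and 4 it was 1316, 1442 and 1633. A fit to San Quintin males alone, which estimates the spread from their own 14 replicates, called 2 transcripts, FBtr0168249 and FBtr0168558, both lower on organ pipe. That fit called more without nonmated agria replicate 1, as given below, and the cause was not tested. In the fit to all groups, 74 transcripts, 14 higher and 60 lower, were called with all replicates and after leaving out any of the 14.

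FBtr0167286 had the largest drop. Its log2 values were 9.69, 9.37 and 9.32 in mated and 9.51, 9.24, 9.39 and 9.23 in nonmated males on organ pipe, against 11.01, 10.99 and 10.46 in mated and 12.98, 11.31, 10.84 and 10.72 in nonmated males on agria. Every organ pipe value lay below every agria value in both mating states, and the highest agria value was that of nonmated replicate 1. Averaged over mating states it fell by 1.74 ± 0.26 (SE; 3.35-fold; limma adjusted p = 1.23e-05) and, without that replicate, by 1.49 ± 0.25 (adjusted p = 0.000431). In the 3 other populations together it was male-biased, higher in males than in females by 1.35 on the log2 scale.

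FBtr0165468 followed. It read 8.77, 8.06 and 8.38 in mated and 7.96, 8.68, 8.60 and 8.23 in nonmated males on organ pipe, against 8.98, 10.10 and 9.80 in mated and 11.46, 9.89, 10.15 and 9.70 in nonmated males on agria. The groups again did not overlap, and the closest pair was mated replicate 1 of each host, at 8.77 and 8.98. It fell by 1.58 ± 0.29 (SE; limma adjusted p = 0.000966), and fell by 1.38 ± 0.29 without nonmated agria replicate 1 (adjusted p = 0.0133).

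Increases on organ pipe were smaller. With all replicates the largest called one was in FBtr0174025, at 1.07 ± 0.34 (SE; limma adjusted p = 0.0482), and its call was lost without nonmated agria replicate 1, where the difference was 1.17 (adjusted p = 0.107). Its hosts overlapped widely in nonmated males but not in mated males: 9.41, 8.78 and 10.31 in mated and 9.99, 11.48, 8.74 and 8.29 in nonmated males on organ pipe, against 8.00, 8.66 and 7.97 in mated and 9.37, 8.47, 9.07 and 8.19 in nonmated males on agria. It kept its call in 4 of the 14 fits that left out a replicate. FBtr0166161 came next, with 12.09, 11.85 and 11.95 in mated and 12.01, 12.24, 12.23 and 12.27 in nonmated males on organ pipe, against 11.44, 11.55 and 11.78 in mated and 9.20, 11.29, 11.35 and 11.65 in nonmated males on agria. Its hosts did not overlap, and it rose by 0.85 ± 0.17 (SE; adjusted p = 0.0020), or by 0.57 ± 0.14 without the replicate at 9.20 (adjusted p = 0.0362).

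Among transcripts called without that replicate, the largest increases with the same direction in both mating states were those of FBtr0173421 and FBtr0162158. FBtr0173421 read 11.60, 11.06 and 11.11 in mated and 11.51, 11.59, 11.58 and 11.79 in nonmated males on organ pipe, against 10.85, 10.81 and 11.31 in mated and 9.49, 9.90, 10.54 and 10.99 in nonmated males on agria. Mated males of the 2 hosts overlapped and nonmated males did not. The increase was 0.71 ± 0.16 without nonmated agria replicate 1 (limma adjusted p = 0.0152) and 0.83 ± 0.16 with it (adjusted p = 0.00118). FBtr0162158 rose by 0.63 ± 0.16 without it (adjusted p = 0.0447) and by 0.78 ± 0.17 with it (adjusted p = 0.00323).

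**Figure D2:**
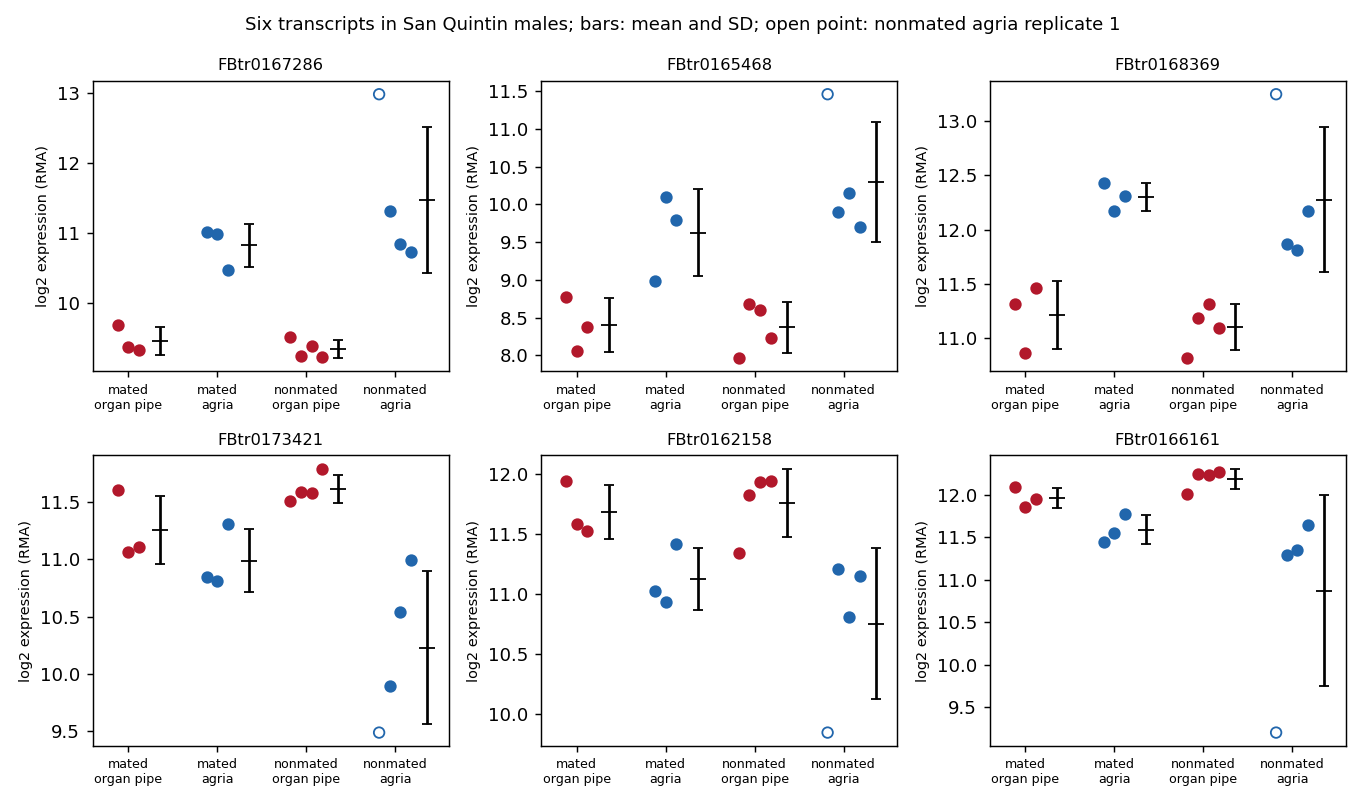
Log2 expression of 6 transcripts in every replicate of San Quintin males, organ pipe in red and agria in blue, mated males left and nonmated males right; bars give the mean and SD, and the open point is nonmated agria replicate 1. In the upper row (FBtr0167286, FBtr0165468, FBtr0168369) the organ pipe values lie below the agria values in both mating states; in the lower row (FBtr0173421, FBtr0162158, FBtr0166161) they lie higher on average.

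In mated males alone, 0 of 14528 transcripts were called (0%), and the smallest limma adjusted p was 0.514. At an unadjusted p below 0.05, 641 transcripts differed, or 4.41% of all. A difference of at least 2-fold was measured in 16 transcripts. A fit with array weights called 7283, but its weights did not converge and ran from 3.43e-06 to 240 over the series, with the highest on mated organ pipe replicate 2. The median SE of a difference was 0.22 here, with 3 replicates a host, against 0.15 over both mating states.

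Nonmated males gave 3259 calls (22.4%), 1788 higher and 1471 lower on organ pipe, and 7 (0.0482%) without nonmated agria replicate 1. In 3076 of the 3259, that replicate was the lowest or the highest of the 8 nonmated replicates. The replicate helped to choose these calls, and the same count over all transcripts is not given, so nothing is read from this. Leaving out nonmated organ pipe replicate 1 gave 2071 calls and leaving out replicate 2 gave 1662. When every array was shifted to the same median, 1403 calls were higher and 1833 lower, where the deposited scale gave more calls in the higher direction.

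The 7 transcripts called in nonmated males without that replicate were FBtr0173421 and FBtr0169609, which were higher on organ pipe, and FBtr0168922, FBtr0167286, FBtr0170385, FBtr0170638 and FBtr0161112, which were lower; all are named because they are few, and all 7 were also among the 3259. FBtr0173421 rose by 1.14 ± 0.21 (SE; limma adjusted p = 0.0105). FBtr0168922 read 9.39, 9.19, 9.70 and 10.02 on organ pipe, against 12.17, 12.57, 10.86 and 10.52 on agria. It fell by 1.74 ± 0.36 without replicate 1 (adjusted p = 0.0214), and in mated males the hosts overlapped, with 10.61, 9.78 and 9.56 on organ pipe against 11.07, 10.67 and 10.56 on agria. The transcripts ranked highest with all replicates included FBtr0166587, FBtr0172429 and FBtr0164924, and these lost their calls without replicate 1. FBtr0166587 was higher on organ pipe by 1.42 with it and by 0.94 without it (adjusted p = 0.141), FBtr0172429 by 1.42 and 0.69 (adjusted p = 0.374), and FBtr0164924 had -2.10 and -1.72 (adjusted p = 0.143).

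The host difference was not shown to depend on mating. The test of the mated minus the nonmated host difference called 0 transcripts in limma (smallest adjusted p = 0.207), with 2664 at an unadjusted p below 0.05, and 0 without nonmated agria replicate 1, with 784. It called 41 without nonmated agria replicate 3, 350 without replicate 4, 2 without mated organ pipe replicate 3, and 2335 with the unconverged array weights. Across 14528 transcripts the mated and nonmated host differences, which share no array, correlated at r = 0.04, or 0.07 without nonmated agria replicate 1. The 86 transcripts, by contrast, had the same direction in mated and nonmated males in all cases; agreement between the states favours selection in their average, so this is a description.

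**Figure D3:**
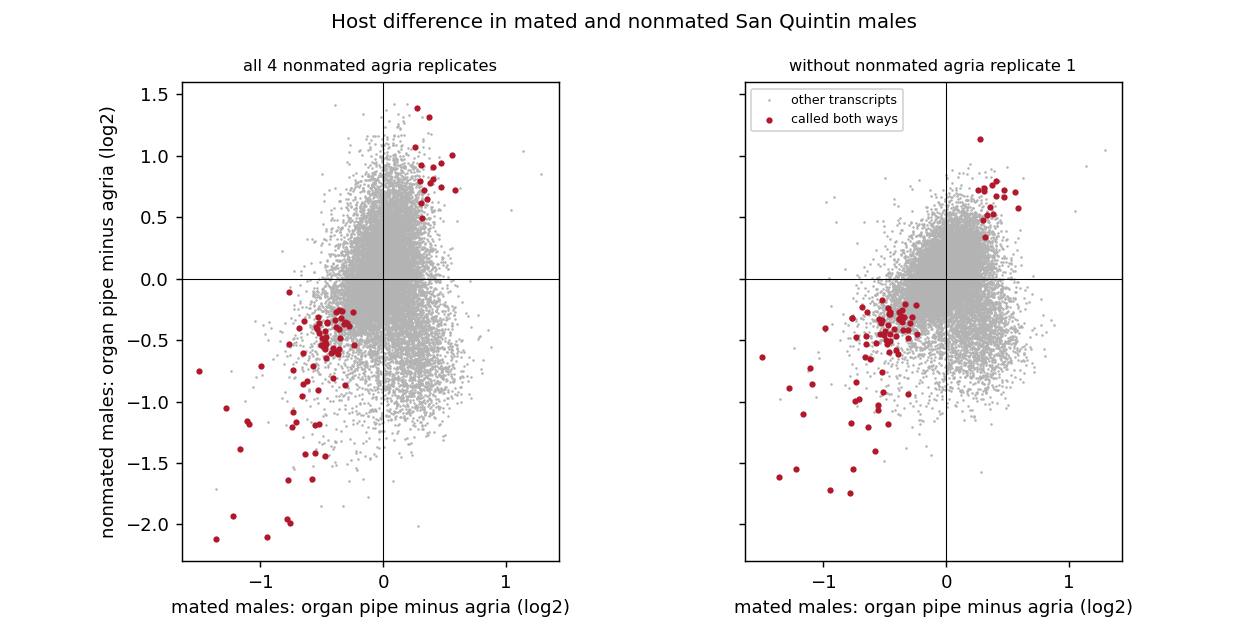
Host difference (organ pipe minus agria, log2) of each transcript in mated males (horizontal) and nonmated males (vertical) from San Quintin, with all nonmated agria replicates (left) and without replicate 1 (right). Red points are the 86 transcripts called over both mating states with and without that replicate; 70 lie at the lower left and 16 at the upper right, while the other transcripts, in grey, follow no diagonal (r = 0.04 and 0.07 over all transcripts).

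The 86 transcripts had host differences of 0.26 to 1.74 in size (log2), with a median of 0.55. Their organ pipe and agria values did not overlap in 46, against 238 of all 14528 transcripts (1.64%); the same replicates chose them, so nothing is read from this. Sex classes were set in the 3 other populations, where 91.7% of transcripts were called for sex and those at least 2-fold apart made up the male-biased and female-biased classes. The 86 held 8 male-biased, 9 female-biased and 69 other transcripts, where the table held 2210, 2856 and 9462. With all transcripts ranked by mean level in 4 equal bins, they numbered 9, 18, 22 and 37 from the lowest bin to the highest.

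No difference between hosts was detected in 3 whole-array measures. A male index was formed by subtracting the average of 200 strongly female-biased transcripts from that of 200 strongly male-biased ones, both ranked in the other populations. It averaged 4.70 ± 0.17 on organ pipe and 4.77 ± 0.15 on agria (SD, n = 7 each; exact permutation within mating states, two-sided p = 0.341, adjusted over 3 measures 0.512). Array medians averaged 10.55 ± 0.04 on organ pipe and 10.52 ± 0.06 on agria (exact p = 0.223, adjusted 0.512). The SD of the values of an array averaged 1.91 on organ pipe and 1.89 on agria (exact p = 0.891). Among all 706 calls (4.86% of all transcripts), 24 of the 2210 male-biased transcripts were higher and 25 lower on organ pipe. Of the 2856 female-biased transcripts, 70 were higher and 37 lower. Without nonmated agria replicate 1 (0.606% of all transcripts called), the female-biased calls were 1 higher and 8 lower. Nothing is read from these counts about the classes.

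Females from San Quintin provided a comparison within the population. The host difference of males minus that of females was called in 29 transcripts (0.2%), 15 higher and 14 lower, and in 4 (0.0275%) without nonmated agria replicate 1. The count ran from 3 to 363 when single replicates of either sex were left out, with 3 without mated agria replicate 3 or mated organ pipe replicate 3 of the males and 363 without nonmated organ pipe replicate 1 of the females. Scaling moved the split as well, to 14 higher and 81 lower with a common median and 50 higher and 31 lower with quantile normalization.

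FBtr0167286 differed most clearly between the sexes. Females had 9.56 ± 0.17 on organ pipe (SD, n = 7) and 9.29 ± 0.18 on agria (SD, n = 8), levels close to those of males on organ pipe, which averaged 9.39 ± 0.16 (SD, n = 7), whereas males on agria averaged 11.19 ± 0.83 (SD, n = 7). The male minus female host difference was -2.02 ± 0.36 (SE; limma adjusted p = 0.00215) and -1.76 without nonmated agria replicate 1 (adjusted p = 0.0145). FBtr0167061 was a dim transcript, with a mean level of 7.21 over all replicates, at percentile 2.68 of all transcripts. It ran in opposite directions: males averaged 6.49 ± 0.22 on organ pipe and 7.17 ± 0.28 on agria (SD, n = 7 each), while females averaged 8.18 ± 0.34 on organ pipe (SD, n = 7) and 7.52 ± 0.16 on agria (SD, n = 8). Its difference between the sexes was -1.31 ± 0.25 (SE; adjusted p = 0.00663), and -1.25 without that replicate (adjusted p = 0.0284).

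Among transcripts whose host difference was higher in males, FBtr0163645 had 1.04 ± 0.22 (SE; limma adjusted p = 0.0215) and FBtr0165172 had 0.61 ± 0.13 (adjusted p = 0.0215). Neither was called without nonmated agria replicate 1, where both had an adjusted p of 0.0735. The 4 calls without it were FBtr0167286, FBtr0167061 and FBtr0165468, which were lower, and FBtr0171033, which was higher by 0.67 ± 0.14 (adjusted p = 0.0298) and had an adjusted p of 0.0601 with all replicates.

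In San Quintin females themselves 677 transcripts were called between hosts (4.66%), of which 34 (0.234%) rose and 643 (4.43%) fell on organ pipe. Of the 86 transcripts of the males, 7 were called in females, all in the direction of the males, and 54 had the same sign. The 70 transcripts lower in males had a median female difference of -0.07, and the 16 higher ones of 0.10, against 0.05 over all transcripts.

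Host differences of San Quintin males were then set against those of males of the 3 other populations. Punta Onah (Sonora) and Organ Pipe National Monument (Arizona) are mainland localities, while Punta Prieta lies in Baja California; their males contributed 16, 16 and 15 replicates of the same 4 kinds. The host difference of San Quintin males minus the mean of the other 3 was called in 3039 transcripts (20.9%), 1602 higher and 1437 lower, and in 1688 (11.6%), 758 higher and 930 lower, without nonmated agria replicate 1. With Punta Onah left out of that mean the count was 1889 (13%), 1069 higher and 820 lower, or 619 (4.26%) without that replicate. Against Punta Onah alone the count was 4853 (33.4%), or 4356 (30%) without it, and against Organ Pipe National Monument 2599 (17.9%), or 1664 (11.5%). With a common array median the calls against Organ Pipe National Monument were 1328 higher and 1372 lower, where the deposited scale gave 1569 higher and 1030 lower. Against Punta Prieta males it was 99 (0.681%), 29 higher and 70 lower, and 1 (0.00688%) without that replicate; it ran from 1 to 358 when single replicates of San Quintin males were left out, the highest without nonmated agria replicate 2, and quantile normalization gave 37 higher and 47 lower.

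FBtr0168369 showed the widest gap. San Quintin males read 11.31, 10.86 and 11.46 mated and 10.81, 11.18, 11.31 and 11.09 nonmated on organ pipe, against 12.43, 12.17 and 12.31 mated and 13.25, 11.87, 11.81 and 12.17 nonmated on agria, with no overlap. In Punta Onah it averaged 8.76 ± 0.30 in mated and 12.81 ± 0.12 in nonmated males on organ pipe, against 8.36 ± 0.19 in mated and 8.40 ± 0.20 in nonmated males on agria (SD, n = 4 each). Nonmated Punta Onah males on organ pipe thus lay far above the other male groups of their population and nearer to the level of San Quintin males on agria. The San Quintin host difference was -1.14 ± 0.18 (SE; limma adjusted p = 6.57e-05), or -0.97 without nonmated agria replicate 1 (adjusted p = 0.00155), and that minus the Punta Onah difference was -3.54 ± 0.25 (adjusted p = 4.08e-21). In Organ Pipe National Monument males it averaged 12.68 ± 0.78 on organ pipe and 12.72 ± 0.33 on agria (SD, n = 8 each), and in Punta Prieta males 12.37 ± 0.45 on organ pipe (SD, n = 8) and 12.36 ± 0.55 on agria (SD, n = 7).

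FBtr0168346 had the second smallest p among the transcripts that were lower against Punta Onah, at -3.09 ± 0.28 (SE; limma adjusted p = 9.26e-15). Its Punta Onah levels had the same form, with 8.19 ± 0.50 in mated and 11.31 ± 0.21 in nonmated males on organ pipe, against 7.50 ± 0.26 in mated and 7.36 ± 0.44 in nonmated males on agria (SD, n = 4 each). In San Quintin males its own fall of 0.77 ± 0.21 (adjusted p = 0.0200) lost its call without nonmated agria replicate 1 (adjusted p = 0.149). FBtr0164595 and FBtr0171712 were higher against Punta Onah, at 1.30 ± 0.17 (adjusted p = 3.12e-09) and 1.19 ± 0.16 (adjusted p = 4.13e-09). Their San Quintin differences of 0.22 and 0.31 were not called. In Punta Onah, FBtr0164595 had -0.73 in mated and -1.44 in nonmated males and FBtr0171712 had -0.45 in mated and -1.30 in nonmated males.

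Against the mean of the 3 populations, FBtr0162158 and FBtr0170090 were higher, at 1.28 ± 0.19 (SE; limma adjusted p = 1.32e-06) and 0.86 ± 0.13 (adjusted p = 4.54e-06), and FBtr0161019 was lower, at -0.88 ± 0.12 (adjusted p = 3.41e-07). Without nonmated agria replicate 1 the values were 1.13, 0.73 and -0.78, and all 3 were called. With Punta Onah left out of the mean they were 1.23, 0.74 and -0.62, again all called. FBtr0162158 averaged 11.73 ± 0.24 on organ pipe and 10.91 ± 0.51 on agria in San Quintin males (SD, n = 7 each), while Punta Onah males had 11.37 ± 0.49 on organ pipe and 11.99 ± 0.21 on agria and Organ Pipe National Monument males 10.80 ± 0.47 on organ pipe and 11.50 ± 0.63 on agria (SD, n = 8 each). It thus rose on organ pipe in San Quintin males and fell in the males of both mainland populations, by 0.61 ± 0.15 (adjusted p = 0.000986) and by 0.70 ± 0.15 (adjusted p = 0.00154); the Punta Onah difference was -0.15 in mated and -1.07 in nonmated males. FBtr0161019 fell in San Quintin males by 0.52 ± 0.10 (adjusted p = 0.0020) and rose in Punta Onah males by 0.89 ± 0.10 (adjusted p = 3.06e-12), where the difference was 0.26 in mated and 1.52 in nonmated males. FBtr0170090 had a Punta Onah difference of -0.30 in mated and -0.74 in nonmated males.

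Of the transcripts named for each comparison, FBtr0167336 had a lower host difference in San Quintin than in both Organ Pipe National Monument, at -0.90 ± 0.15 (SE; limma adjusted p = 2.14e-05), and Punta Prieta, at -0.85 ± 0.15 (adjusted p = 0.00197); it was the only call against Punta Prieta without nonmated agria replicate 1 (adjusted p = 0.0125). San Quintin males averaged 11.07 ± 0.24 on organ pipe and 11.72 ± 0.31 on agria (SD, n = 7 each), and Punta Prieta males 11.88 ± 0.13 on organ pipe (SD, n = 8) and 11.67 ± 0.12 on agria (SD, n = 7). FBtr0173421 went the other way, at 1.50 ± 0.22 against Organ Pipe National Monument (adjusted p = 3.42e-06) and 1.02 ± 0.22 against Punta Prieta (adjusted p = 0.0331, or 0.151 without that replicate). FBtr0174666 and FBtr0167595 also differed from Organ Pipe National Monument, at 0.65 ± 0.09 (adjusted p = 3.42e-06) and -1.06 ± 0.18 (adjusted p = 3.64e-05). Without nonmated agria replicate 1 the differences from Organ Pipe National Monument were 1.37 for FBtr0173421, 0.60 for FBtr0174666 and -1.06 for FBtr0167595, all called. FBtr0163832 and FBtr0174244 differed from Punta Prieta, at 0.81 ± 0.19 and -0.56 ± 0.12 (both with adjusted p = 0.0331, or 0.151 without the replicate).

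The 86 transcripts of San Quintin males mostly ran the opposite way in Punta Onah males, whose arrays entered the choice only through the pooled spread. In Punta Onah 62 of the 86 were called in the opposite direction and 0 in the same one, where 36.9% of all transcripts were called, 16.7% higher and 20.2% lower. The 70 transcripts lower in San Quintin had a median Punta Onah difference of 0.48, positive in 64, and the 16 higher ones a median of -0.27, negative in 13; over all transcripts it was -0.04. Both values came mainly from nonmated flies. In nonmated Punta Onah males 64 of the 86 were called in the opposite direction (40.4% of all transcripts were called), and the medians were 0.86 for the 70 and -0.48 for the 16. In mated Punta Onah males 4 were called in the opposite direction and 0 in the same one (1.85% of all), with medians of 0.16, positive in 52 of 70, and -0.07, negative in 10 of 16.

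The populations were also compared within each mating state. Comparisons of mated males use no nonmated array, so leaving out nonmated agria replicate 1 alters their counts only through the pooled spread. Between nonmated males of San Quintin and Punta Onah, host differences were called apart in 5407 transcripts (37.2%), or 4158 (28.6%) without nonmated agria replicate 1. Between mated males they were called apart in 153 (1.05%), 30 higher and 123 lower in San Quintin, or in 238 (1.64%) without that replicate, and 22 of the 86 were among the 153. Those 22 had the direction of the San Quintin difference, with which the test shares its San Quintin arrays.

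Against the other populations the mated and nonmated tests also differed in their counts. Between San Quintin and Organ Pipe National Monument, 0 transcripts were called apart in mated males in limma (0%, with 1399 at an unadjusted p below 0.05). Without nonmated agria replicate 1 it was 36 (0.248%), again a change of the pooled spread alone. In nonmated males 2081 were called apart (14.3%), or 680 (4.68%) without it. Between San Quintin and Punta Prieta, 0 were called apart in mated males (653 at an unadjusted p below 0.05) and 1 in nonmated males (0.00688%), or 0 without that replicate. Whether the mated and nonmated differences between populations differ from each other was not tested.

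In Organ Pipe National Monument and Punta Prieta males the balance of signs among the 70 lower transcripts was not the same in mated and nonmated males. All 70 share the arrays of a group, and a difference between the mating states was not tested. In mated Punta Prieta males 66 of the 70 were positive, with a median of 0.16 against 0.02 over all transcripts, and in nonmated Punta Prieta males 21 were positive, with a median of -0.08. In mated Organ Pipe National Monument males 18 of the 70 were positive, with a median of -0.20, and in nonmated males 45 were positive, with a median of 0.07. Averaged over mating states the medians were -0.06 in Organ Pipe National Monument, with 46 negative, and 0.04 in Punta Prieta, with 48 positive. The 16 higher transcripts had averaged medians of -0.29, negative in 15, and -0.08, negative in 14.

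The 86 were also looked up among the calls of these populations, and the counts are not read as a result about the 86. In Organ Pipe National Monument, where 12.1% of transcripts were called (7.74% in mated and 4.44% in nonmated males), 6 of the 86 were called in the same and 6 in the opposite direction. In Punta Prieta males 0 of 14528 transcripts were called in limma (0%; 384 at an unadjusted p below 0.05).

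**Figure D4:**
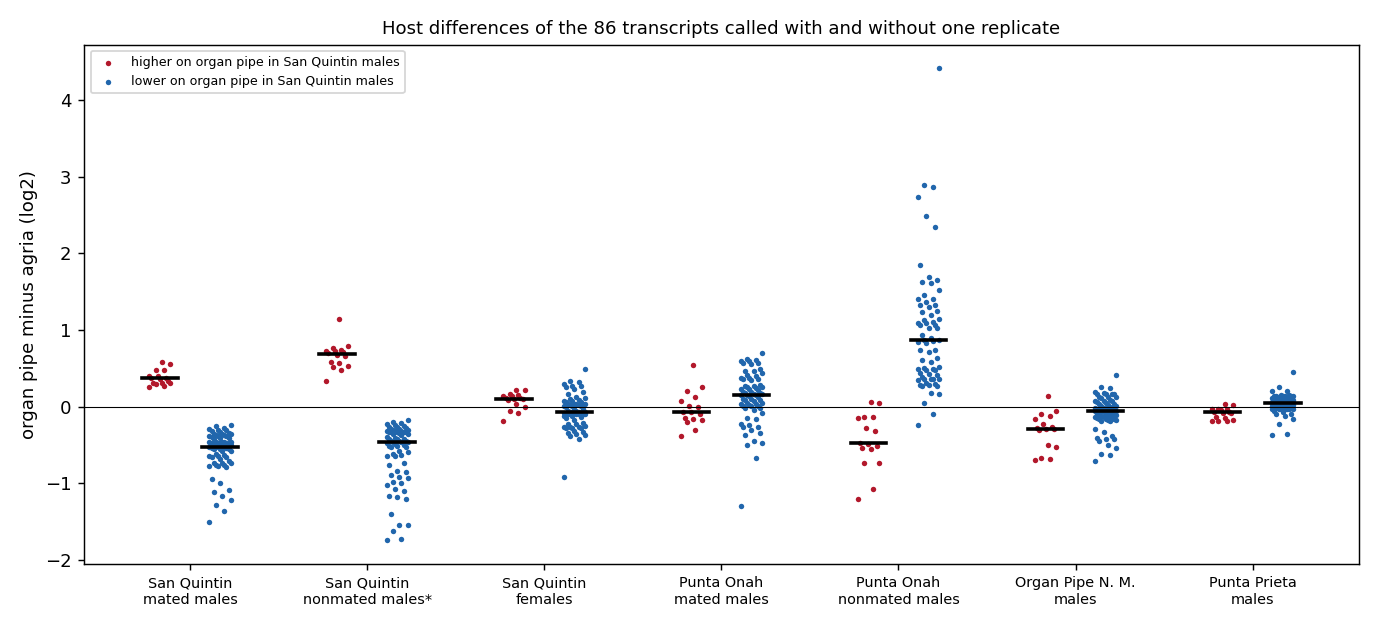
Host difference (organ pipe minus agria, log2) of the 86 transcripts in San Quintin mated and nonmated males (* without nonmated agria replicate 1), San Quintin females, Punta Onah males by mating state, and males of Organ Pipe National Monument and Punta Prieta; blue points are the 70 transcripts lower and red points the 16 higher on organ pipe in San Quintin males, and bars are medians. The San Quintin male columns were used to choose the transcripts; the blue points lie mostly above 0 in Punta Onah, with medians of 0.16 in mated and 0.86 in nonmated males.

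Lists of transcripts set wholly in other flies were then read in San Quintin males. These lists are calls of the same fit in those flies. The Punta Onah lists average over mating states, and host calls there numbered 5872 in nonmated males (40.4%) and 269 in mated males (1.85%). The nonmated organ pipe group of Punta Onah, described above as a limit, enters both Punta Onah lists. A list from mated Punta Onah males alone was not made. The 2430 transcripts (16.7%) higher on organ pipe in Punta Onah males had a median host difference of -0.15 in San Quintin males, negative in 1904, and of -0.13 without nonmated agria replicate 1; the median over all transcripts was -0.01 and 0.00. In mated males 2062 of the 2430 were negative, and the mean level of the list was 11.12 ± 0.05 in mated males on organ pipe and 11.31 ± 0.01 in mated males on agria (SD, n = 3 each), with no overlap. The 2933 transcripts lower on organ pipe in Punta Onah males differed between mating states: the median was 0.18 in mated San Quintin males, positive in 2492, and -0.10 in nonmated males, positive in 1232. Mean levels of this list were 9.42 ± 0.15 on organ pipe and 9.24 ± 0.09 on agria in mated males (SD, n = 3 each), and those groups overlapped.

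The 1072 transcripts (7.38%) lower on organ pipe in Organ Pipe National Monument males had a median of 0.18 in San Quintin males, positive in 829, or 0.12 without nonmated agria replicate 1. Nonmated males carried most of it, with a median of 0.32, or 0.19 without that replicate, against 0.04 in mated males. The 684 transcripts (4.71%) higher there had a median of -0.13, negative in 550. In mated San Quintin males 639 of the 1072 were positive, close to the 54.2% of all transcripts that were positive there. Transcripts are not independent replicates, and no test was made of the lists.

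Further lists concerned mating, where 7.3% of transcripts were called, and females. The nonmated organ pipe group of Punta Onah, described above as a limit, is among the nonmated males that set the mating lists. Mating lists without that group were not made, so their host differences are not read as a link between mating and host. The 266 transcripts (1.83%) lower in mated than in nonmated males of the other populations had a median host difference of -0.24 in San Quintin males, negative in 214, and of -0.22 without nonmated agria replicate 1. In nonmated males alone the median was -0.40, and in mated males -0.03; their mean level was 10.67 ± 0.16 on organ pipe and 11.15 ± 0.20 on agria in nonmated males (SD, n = 4 each). Every nonmated organ pipe replicate lay below every nonmated agria replicate, with a highest value of 10.81 against a lowest of 10.96. The 795 transcripts (5.47%) higher in mated males elsewhere had a median of -0.01. The 643 transcripts lower on organ pipe in San Quintin females had a median of -0.12 in males, negative in 461, or -0.09 without nonmated agria replicate 1.

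**Figure D5:**
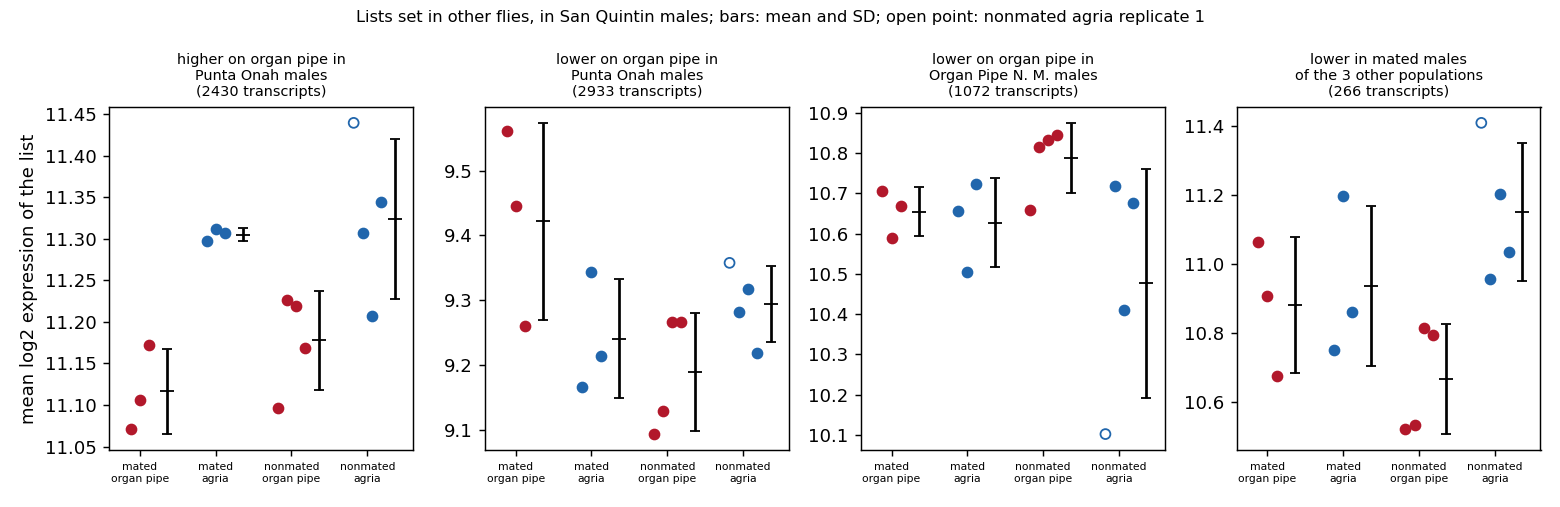
Mean log2 expression of 4 lists in each replicate of San Quintin males, organ pipe in red and agria in blue, with the mean and SD as bars and nonmated agria replicate 1 as the open point. The lists were set in Punta Onah males (2430 transcripts higher and 2933 lower on organ pipe), in Organ Pipe National Monument males (1072 lower) and by mating in the males of the other populations (266 lower in mated males). The nonmated organ pipe group of Punta Onah, described in the text as a limit, enters the Punta Onah lists and the mating list. The first list does not overlap between hosts in mated males (n = 3 each), nor does the fourth in nonmated males (n = 4 each). The transcripts of a list share the same arrays, and no test was made of the lists.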

How the data were processed

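Total RNA was labelled with Cy3 and hybridised to 135K 12-plex NimbleGen arrays, per the labels. The deposited log2 values (4.64 to 15.78) were made by the authors with RMA, version not given in the sources used here, per the submitters' processing notes. The series text gives 15528 transcripts a chip, and 14528 were analysed here on 127 of 128 hybridizations. Arrays of a group sharing a replicate number were averaged: mated organ pipe replicate 1 (r = 0.940 between its arrays) and nonmated organ pipe replicate 3 (r = 0.976). A mean for each of 32 groups was fitted in limma 3.58.1 (R 4.3.3; 91 residual and 4.67 prior degrees of freedom), with two-sided contrasts and Benjamini-Hochberg adjustment over all transcripts. The shared fit pools the spread over all groups. Members, lists and tests were chosen with earlier results of these data known, and the settings without nonmated agria replicate 1 and the split by mating state in other populations after seeing the data. At most 2 transcripts per direction were named per comparison: called, with the same sign in both mating states and the largest mean difference for the main comparison, the largest difference within a mating state, and the smallest p for the others; the same rule was applied without nonmated agria replicate 1. The gene table (RefSeq assembly ASM1815372v1, 15130 genes) matched 0 identifiers, so lists by gene function were not run. The test script was tested on simulated data. Replicate numbers did not pair samples. For arrays, the number of replicates limits precision; scanner files and slides were not used here.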

Additional observations from a re-analysis of the deposited data

Results flagged for a closer look

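Some values lay far from the other replicates of their group by Dixon's criterion, which chance meets in about 1 group in 20; 7 of 80 groups of 4 met it, 4 of them through nonmated agria replicate 1. In that replicate FBtr0161019 read 12.11, FBtr0166161 9.20 and FBtr0172947 11.89, and the list higher in mated males elsewhere averaged 10.89, against 10.66 to 10.69 in the other 3. FBtr0166161 was also low in nonmated organ pipe replicate 1, at 12.01, FBtr0174666 was low in nonmated organ pipe replicate 2, at 13.73, and the list lower on organ pipe in Organ Pipe National Monument males averaged 10.66 in nonmated organ pipe replicate 1.

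The host difference of San Quintin males differed by the test of the difference itself from that of San Quintin females in 29 transcripts, of the mean of other males in 3039, of Punta Onah males in 4853, of Organ Pipe National Monument males in 2599 and of Punta Prieta males in 99. Against females, FBtr0163645 had a difference of 1.04, FBtr0165172 of 0.61, FBtr0167286 of -2.02 and FBtr0167061 of -1.31. Against the mean of other males, FBtr0162158 had 1.28, FBtr0170090 0.86, FBtr0168369 -1.92 and FBtr0161019 -0.88. Against Punta Onah males, FBtr0164595 had 1.30, FBtr0171712 1.19, FBtr0168369 -3.54 and FBtr0168346 -3.09. Against Organ Pipe National Monument males, FBtr0174666 had 0.65, FBtr0173421 1.50, FBtr0167336 -0.90 and FBtr0167595 -1.06. Against Punta Prieta males, FBtr0173421 had 1.02, FBtr0163832 0.81, FBtr0167336 -0.85 and FBtr0174244 -0.56. The causes of these differences were not tested.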

How the results depend on the processing

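Counts of host calls depended on the setting. Over 37 results for named transcripts and 1238 alternatives, 0 changed sign, and 15 of the 37 stayed on the same side of the threshold throughout. These transcripts were named for the largest differences or smallest p in the same arrays. Their signs were therefore unlikely to change, and nothing is read from this. The split of all calls between directions did move with the scaling of the arrays, as given above. Calls over both mating states numbered 1173 with every array as a replicate, 86 in a fit to males only and 2 in a fit to San Quintin males only. Without nonmated agria replicate 1, a choice made after seeing the data, the last fit gave 188, quantile normalization 93, a common median 128 and array weights 821. For nonmated males the counts were 1345 with males only, 0 with San Quintin males only and 28 with array weights; without that replicate they were 5 with San Quintin males only, 8 with quantile normalization, 7 with a common median and 2449 with array weights. Array weights, which did not converge, gave 7283 calls in mated males (9 without that replicate) and 2335 for mated minus nonmated, where the first array of each pair gave 3. For males minus females there were 81 with quantile normalization, 95 with a common median, 116 without the dimmest transcripts, 45 with every array separate, 6 and 492 with the first or second array of each pair, 1029 with array weights and 101 with a trended robust prior; without that replicate, 16, 14 and 1583 with quantile normalization, a common median and array weights. Against other males, leaving out Punta Onah gave 1889. Without nonmated agria replicate 1 but with Punta Onah kept, quantile normalization and a common median gave 1842 and 1753 against other males. Against Organ Pipe National Monument males a common median without that replicate gave 1675, and mated males alone, with that replicate, gave 0. Against Punta Onah males, mated males alone gave 153. Against Punta Prieta males there were 151 with every array separate, 38 with the first arrays, 0 with males only, 1573 with array weights, 0 with mated and 1 with nonmated males alone; without that replicate, 1, 1 and 1750 with quantile normalization, a common median and array weights. The causes were not tested.

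Leaving out a replicate, or all replicates of a number, gave 4 to 1633 calls over both mating states, 0 to 1 in mated males, 3 to 4462 in nonmated males and 0 to 1120 for mated minus nonmated. The range was 0 to 363 for males minus females, 600 to 3802 against other males, 3199 to 5112 against Punta Onah, 332 to 4677 against Organ Pipe National Monument and 0 to 358 against Punta Prieta males.

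Samples with the same replicate number did not deviate together: 7 of 18 same-number pairs had r above 0.1, with a range of -0.70 to 0.50. With the replicate number as a block the counts were 929, 0 and 3266 over both states, in mated and in nonmated males, 0 for mated minus nonmated, 39 for males minus females, 3179, 4901, 2744 and 120 against other, Punta Onah, Organ Pipe National Monument and Punta Prieta males, and none moved by over 1.5 times. With 3 or 4 replicates a group, the number of arrays limits precision.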

Other observations

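Host differences across the 14528 transcripts were also set side by side between populations by mating state; these comparisons share no array, and all points of a comparison share its arrays. San Quintin mated males correlated at r = -0.62 with Punta Onah nonmated, -0.39 with Punta Onah mated, 0.25 with Organ Pipe National Monument mated and 0.18 with Punta Prieta mated males. San Quintin nonmated males correlated at -0.05 and 0.08 with Punta Onah nonmated and mated males, at -0.62 with Organ Pipe National Monument mated, at -0.69 with Punta Prieta mated and at 0.36 with Punta Prieta nonmated males. Without nonmated agria replicate 1 the values with Punta Prieta were -0.65 and 0.42. Correlations of this size occurred although mated San Quintin males and both states of Punta Prieta males had 0 calls in limma. What the arrays of a group share was not tested.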
